A study of Homo sapiens with 6 samples.

Results

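The 10 genes described here encode enzymes and adaptors of repressive chromatin: the LSD1-CoREST complex (KDM1A, RCOR1, RCOR2, RCOR3) with its recruiter GFI1B, the DNA methyltransferases DNMT1, DNMT3A and DNMT3B, and the H3K9 methyltransferases EHMT1 and EHMT2. They were taken by symbol from tables of 62754 genes, and each symbol matched 1 gene. RNA was measured in HUDEP-2, an immortalised line of human erythroid progenitors whose hemoglobin is mostly of the adult type. The series asks how the MLL1 complex, which contains menin, the product of MEN1, takes part in the repression of fetal hemoglobin. The medium of both groups held 3 units of erythropoietin and 50 ng of stem cell factor per ml, with 1e-06 M dexamethasone and 1 µg per ml of doxycycline. They received a lentiviral shRNA, were selected with puromycin at 2 µg per ml from 24 h after infection for 48 h, and were profiled 72 h after transduction. The MEN1 shRNA group (n = 3) carried a hairpin against MEN1 and the control group (n = 3) a hairpin with no target. Only 1 MEN1 hairpin was used, so the loss of MEN1 and any other effect of that hairpin cannot be told apart.

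LSD1, the product of KDM1A, removes methyl groups from lysine 4 of histone H3. It needs a CoREST protein, such as the product of RCOR1, to act on nucleosomes. RCOR2 and RCOR3 encode paralogs of that protein, which are not taken here to act alike. In erythroid cells LSD1 is brought to genes by the zinc-finger factor GFI1B through the SNAG domain. DNMT1 copies DNA methylation onto newly made strands, while DNMT3A and DNMT3B set it de novo. GLP (EHMT1) and G9a (EHMT2) work as a heterodimer that places mono- and dimethyl marks on lysine 9 of histone H3. LSD1, DNMT1 and G9a are each known as repressors of the fetal gamma-globin genes in adult erythroid cells.

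Sequence before a RefSeq start of RCOR1 and of DNMT3B is shown first, because these members had the largest fall and the largest rise among the 9 that were tested. Each window is the 250 bases before that start (GRCh38.p14, plus strand), 5′ to 3′, with the CCAAT box in capitals. None of its bases lies in a GENCODE v29 exon of a member, and exons of other genes were not compared. RCOR1 is at chr14:102592399-102592648 and DNMT3B at chr20:32779602-32779851. The RCOR1 window ends where the gene span of the deposited tables opens. The DNMT3B window precedes an internal start, inside a gene span that opens at 32762385, so the 2 windows are not like positions.
RCOR1: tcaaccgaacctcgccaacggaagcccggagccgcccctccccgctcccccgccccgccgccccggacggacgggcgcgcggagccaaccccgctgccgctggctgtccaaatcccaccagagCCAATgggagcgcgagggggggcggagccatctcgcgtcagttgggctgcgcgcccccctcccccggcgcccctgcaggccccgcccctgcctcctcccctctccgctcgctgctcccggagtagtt
DNMT3B: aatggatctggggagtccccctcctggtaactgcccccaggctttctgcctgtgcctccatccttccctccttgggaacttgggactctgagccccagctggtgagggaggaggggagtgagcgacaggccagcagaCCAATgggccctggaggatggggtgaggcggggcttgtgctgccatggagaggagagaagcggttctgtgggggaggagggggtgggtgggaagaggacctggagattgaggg
The RCOR1 window had a GC content of 76.4%, 30 CpG dinucleotides and an observed to expected CpG ratio of 0.871. The DNMT3B window had a GC content of 64% with 3 CpG dinucleotides and a ratio of 0.129. These values describe the windows and not the genes. Over all 35116 promoters of the table the medians were 58% and 0.558. CCAAT, read on both strands, was present in 32% of those promoters and in a window of 4 members. The members have 16 windows in all, and a member counts if any of its windows matches. For this and the other motifs, counts of members and shares of promoters are therefore not like units.

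GFI1B is the DNA-binding member, and its protein recognises an AATC core. The AAATCA before each of its RefSeq starts is shown in capitals within 30 bases (plus strand, GRCh38.p14). The stretch before the first start is at chr9:132945345-132945374, with its first base at -186 from that start, and the stretch before the second at chr9:132978647-132978676, with its first base at -47.
GFI1B first start: ataggagacagcttgaAAATCAgaacgcct
GFI1B second start: caaataatcagattgaAAATCAgggagggg
Counted on both strands, the first stretch held 1 AATC core and the second held 3. AAATCA occurred in 11.6% of all promoters and, among the members, only in the windows of GFI1B. A GATA motif (AGATAA as such, with T as its first base, with G as its last, or with both, on both strands) was present in 22.3% of all promoters and in a window of 1 member, GFI1B. CACGTG was present in 6.34% of promoters and in windows of DNMT3A and EHMT2, and the GC box GGGCGG in 42.6% of promoters and in windows of 6 members. The E2F motifs TTTCCCGC, TTTCGCGC, TTTGCCGC and TTTGGCGC, found in 2.79% of promoters, had no match in the windows of the 9 members that the table holds, all but RCOR2. These matches are letters in a window and do not show binding.

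MEN1 itself, which checks the labels, had 6.29, 6.44 and 6.88 TPM (transcripts per 1e+06 of the library) in the MEN1 shRNA libraries and 41.2, 39.6 and 37.1 TPM in the controls, 16.6% of the control level. The deposited values give a depth of 18400000 to 35800000 read pairs per library, and 13865 to 14361 genes per library reached 1 TPM. Of 14294 genes tested, 53.6% were past the adjusted p threshold of 0.05 of limma, which is used throughout, 22.1% being higher and 31.5% lower with the MEN1 shRNA, and the median log2 fold change was -0.07. Scalings that centre this median moved it to between -0.01 and 0.01. Fewer cells of a type and less RNA per cell cannot be told apart in these bulk samples.

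At least 1 TPM was reached in all 6 libraries by 9 of the 10 members, and RCOR2 reached it in none. Of the 9 tested, 6 (66.7%) passed the threshold, 2 higher and 4 lower, against 53.6% of all genes tested, so this share is near that of all genes. The largest change was under 2-fold, a size that was reached with a call by 11.9% of genes tested. The groups did not overlap in 7 of the 9 tested members, 2 higher and 5 lower, against 61.8% of genes tested, 25.8% higher and 35.9% lower. The median log2 fold change of the 9 tested members was -0.19. The split of the calls depended on scaling: it was 3 higher and 1 lower with median-of-ratios scaling, 2 higher and 1 lower after globin and mitochondrial genes were taken out of the total, and 3 higher and 2 lower with quantile normalization. The calls over all genes shifted the same way. Of these, 41.2% were higher in TPM as deposited, and 49.5%, 47.3% and 49.1% under those scalings in turn.

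**Figure D1:**
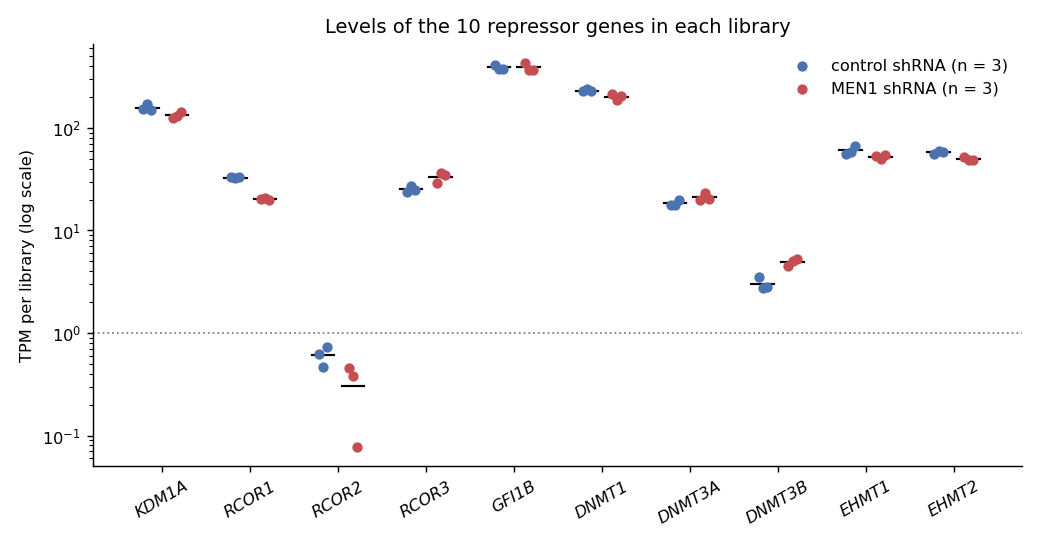
TPM of each member in each library on a log scale, with control libraries in blue, MEN1 shRNA libraries in red, group means as bars and 1 TPM as a dotted line. GFI1B is highest in both groups and RCOR2 stays under 1 TPM in every library, while the RCOR1 libraries form 2 tight groups.

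In the control libraries, GFI1B had the highest level, 389 ± 18.7 TPM (SD, n = 3), followed by DNMT1 (231 ± 5.78) and KDM1A (158 ± 13.4). EHMT1 (60.3 ± 5.30) and EHMT2 (57.7 ± 1.80) came next and their libraries overlapped. RCOR1 (32.7 ± 0.276), RCOR3 (25.2 ± 1.76), DNMT3A (18.5 ± 1.33), DNMT3B (3.04 ± 0.430) and RCOR2 (0.607 ± 0.136) followed, each above the next in all 3 libraries. With the MEN1 shRNA the mean TPM of RCOR1 (20.4 ± 0.474) lay below those of RCOR3 (33.5 ± 3.85) and DNMT3A (21.1 ± 1.73), and the RCOR1 and DNMT3A libraries overlapped, while the other members kept their order.

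RCOR1 encodes CoREST1, the scaffold that joins LSD1 to HDAC1 and HDAC2. It is ENSG00000089902 on chromosome 14, 102592649 to 102730561 (plus strand, GRCh38). It measured 20.3, 20.9 and 19.95 TPM under the MEN1 shRNA and 32.9, 32.4 and 32.9 TPM in control cells. All 3 MEN1 shRNA libraries were lower, with a gap between the groups far wider than the spread within either. RCOR1 fell from 32.7 ± 0.276 to 20.4 ± 0.474 TPM, to 62.3% of control (a log2 fold change of -0.66, SE 0.0636, 95% interval -0.81 to -0.51, adjusted p 0.000138 in limma). Its deposited coverage, read here as reads per exonic base, was 47.4 to 143. The call held in 18 of 19 alternative settings, all but the test against a log2 change of 0.5, where the adjusted p was 0.113.

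RCOR3 encodes CoREST3, a paralog of CoREST1 (ENSG00000117625, chromosome 1, 211258377 to 211316385, plus strand). Its TPM was 29.1, 36.3 and 34.96 under the MEN1 shRNA and 23.7, 27.2 and 24.8 in control cells. Every MEN1 shRNA library was higher than every control, with replicate 1 the nearest to them. RCOR3 rose from 25.2 ± 1.76 to 33.5 ± 3.85 TPM, 1.32 times control (a log2 fold change of 0.39, SE 0.101, interval 0.15 to 0.62, adjusted p 0.0134 in limma). On gene-level coverage the log2 fold change was 0.13 with an adjusted p of 0.194, so the rise was not called on that scale.

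RCOR2, the CoREST paralog best known from neural and stem cells (ENSG00000167771, chromosome 11, 63911230 to 63917164, minus strand), was barely measurable. Its TPM was 0.459, 0.377 and 0.0775 under the MEN1 shRNA and 0.622, 0.464 and 0.735 in control cells, on 0.192 to 1.96 reads per base. It was under the filter and was not tested.

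The contribution of each paralog to CoREST RNA was compared within libraries, which needs no scaling. RCOR1 made up 40.8%, 36.3% and 36.3% of the summed TPM of RCOR1, RCOR2 and RCOR3 with the MEN1 shRNA and 57.4%, 54.0% and 56.3% in control cells. The larger share lay with RCOR1 in all 3 controls and with RCOR3 in all 3 MEN1 shRNA libraries. The ratio of RCOR1 to RCOR3 was 0.699, 0.575 and 0.571 against 1.38, 1.19 and 1.32, a log2 difference of -1.05 in (TPM + 1). The exact permutation test gave 0.1, the lowest p possible for 3 against 3 libraries, and 0.133 after adjustment over the 4 ratios compared. The summed TPM of the family was 54.2 ± 3.93 with the MEN1 shRNA and 58.6 ± 1.42 in the controls (log2 fold change -0.11, interval -0.28 to 0.05, adjusted p 0.212 in limma). By coverage RCOR1 held 68.1 ± 0.982% and 79.1 ± 0.940% of the family, and the sum had a log2 fold change of -0.48 (adjusted p 0.000295). The fall in the RCOR1 share was thus present on both scales, while a swap of the leading paralog was seen in TPM only. The sum was lower on both scales but passed the threshold only by coverage, and its interval in TPM reached -0.28.

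**Figure D2:**
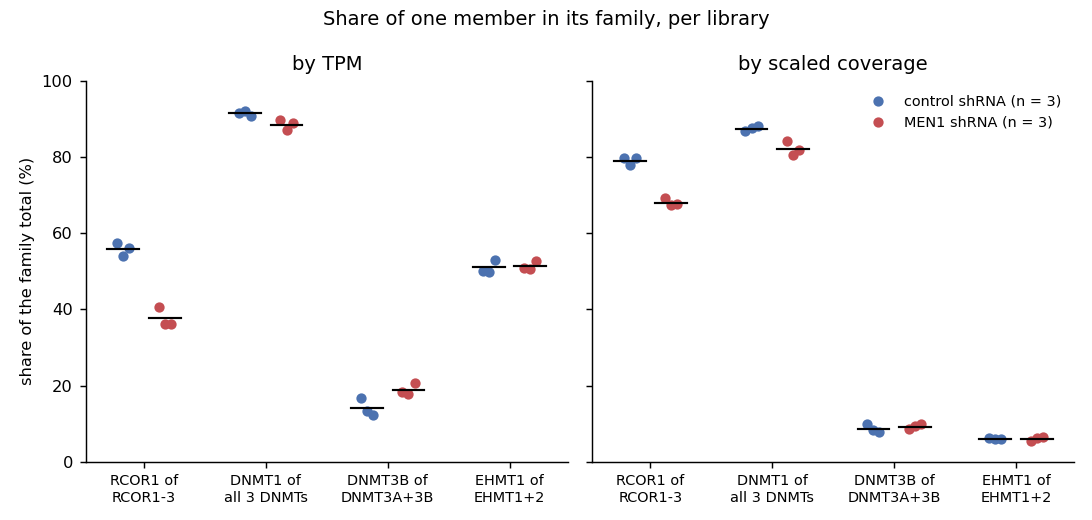
Share of a member in the total of its family (percent) in each library, by TPM on the left and by scaled coverage on the right, with control libraries in blue, MEN1 shRNA libraries in red and group means as bars. The RCOR1 share is lower in all 3 MEN1 shRNA libraries on both scales, whereas the DNMT3B share overlaps between the groups by coverage.

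KDM1A encodes LSD1, the catalytic subunit (ENSG00000004487, chromosome 1, 23019443 to 23083689, plus strand). Its TPM was 126, 131 and 142 under the MEN1 shRNA and 152, 173 and 148 in control cells. The groups did not overlap, but MEN1 shRNA replicate 3 and control replicate 3 lay close together. KDM1A fell from 158 ± 13.4 to 133 ± 8.18 TPM, 15.7% below control (a log2 fold change of -0.24, SE 0.0782, interval -0.43 to -0.06, adjusted p 0.0314 in limma). The call was lost without MEN1 shRNA replicate 1 (adjusted p 0.0807), MEN1 shRNA replicate 2 (0.0857) or control replicate 2 (0.0937), and with median-of-ratios scaling (log2 fold change -0.16, adjusted p 0.0964). The ratio of KDM1A to RCOR1 in TPM was 6.20, 6.25 and 7.11 under the MEN1 shRNA and 4.62, 5.34 and 4.51 in control cells, higher in all 3 MEN1 shRNA libraries (log2 difference 0.41, exact permutation p 0.1, 0.133 adjusted over the 4 ratios).

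GFI1B, the recruiter (ENSG00000165702, chromosome 9, 132944000 to 132991687, plus strand), was the most abundant member. Its TPM was 428, 368 and 370 under the MEN1 shRNA and 410, 377 and 379 in control cells. Replicate 1 was the highest of its group in each case and the groups overlapped. The means were 389 ± 34.3 and 389 ± 18.7 TPM (a log2 fold change of -0.0023, SE 0.0749, adjusted p 0.983 in limma), and the 95% interval ran from -0.18 to 0.17. TSC1, on the opposite strand, overlaps the first part of this gene and was at 14.5 to 22.5 TPM.

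**Figure D3:**
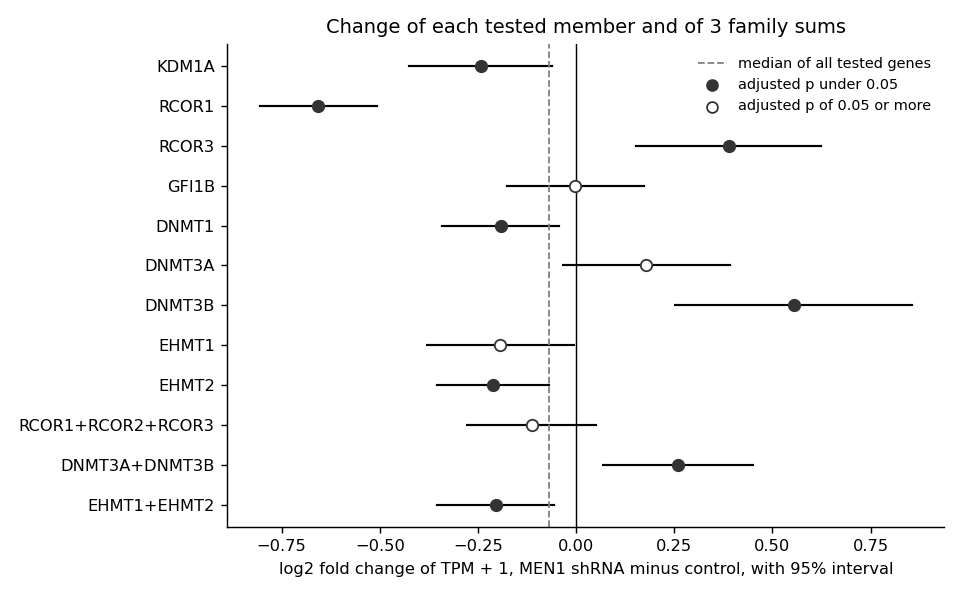
Log2 fold change of TPM + 1, MEN1 shRNA minus control, with its 95% interval, for the 9 tested members and 3 family sums, filled where the adjusted p was under 0.05. RCOR1 at -0.66 and DNMT3B at 0.55 lie farthest from 0, and the dashed line marks the median of all tested genes at -0.07.

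DNMT1, the maintenance methyltransferase (ENSG00000130816, chromosome 19, 10133342 to 10231286, minus strand), was far above both de novo enzymes. Its TPM was 216, 188 and 203 under the MEN1 shRNA and 228, 238 and 228 in control cells. All MEN1 shRNA libraries were lower, replicate 2 the most. DNMT1 fell from 231 ± 5.78 to 202 ± 14.1 TPM, 12.4% below control (a log2 fold change of -0.19, SE 0.0642, interval -0.34 to -0.04, adjusted p 0.0363 in limma). The call was lost when any library other than MEN1 shRNA replicate 1 was left out (adjusted p 0.0688 to 0.112), and with median-of-ratios scaling (log2 fold change -0.10, adjusted p 0.198).

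DNMT3A (ENSG00000119772, chromosome 2, 25227855 to 25342590, minus strand) is a de novo methyltransferase that is often mutated in clonal hematopoiesis. It measured 19.9, 23.0 and 20.2 TPM under the MEN1 shRNA and 17.6, 17.9 and 20.004 TPM in control cells. The groups overlapped, because control replicate 3 lay above MEN1 shRNA replicate 1. The log2 fold change was 0.18 (SE 0.0908, interval -0.03 to 0.39, adjusted p 0.136 in limma). It passed the threshold with median-of-ratios scaling (0.26, adjusted p 0.0431), with quantile normalization (0.32, adjusted p 0.0186) and by coverage (0.34, adjusted p 0.0105).

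DNMT3B, the second de novo enzyme (ENSG00000088305, chromosome 20, 32762385 to 32809359, plus strand), had a low level. Its TPM was 4.49, 4.99 and 5.27 under the MEN1 shRNA and 3.53, 2.76 and 2.82 in control cells. All MEN1 shRNA libraries were higher, and control replicate 1 stood above the other controls. DNMT3B rose from 3.04 ± 0.430 to 4.92 ± 0.395 TPM, 1.62 times control (a log2 fold change of 0.55, SE 0.129, interval 0.25 to 0.86, adjusted p 0.00823 in limma). The gene had only 1.19 to 2.50 reads per base, and by scaled coverage it was 1.42 times control, with a log2 fold change of 0.18 on the (value + 1) scale (adjusted p 0.0445).

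Together, DNMT3A and DNMT3B amounted to 24.4, 28.0 and 25.5 TPM under the MEN1 shRNA and 21.1, 20.6 and 22.8 TPM in control cells. This sum rose from 21.5 ± 1.17 to 25.97 ± 1.87 TPM (a log2 fold change of 0.26, SE 0.0820, adjusted p 0.0294 in limma). The call was lost without MEN1 shRNA replicate 2 or 3 or control replicate 1 or 2 (adjusted p 0.0608 to 0.1003). DNMT1 made up 91.5 ± 0.568% of the TPM of the 3 methyltransferases in the controls and 88.6 ± 1.44% with the MEN1 shRNA, and the groups did not overlap. The ratio of DNMT3A to DNMT3B was 4.44, 4.61 and 3.84 against 4.97, 6.47 and 7.08 in TPM (log2 difference -0.37 in TPM + 1, exact permutation p 0.1, 0.133 adjusted over 4 ratios). By scaled coverage the DNMT3B share of this pair was 9.25 ± 0.707% with the MEN1 shRNA and 8.67 ± 1.07% in the controls, and the groups overlapped. The log2 difference of (coverage + 1) was 0.16, of opposite sign to these shares, with DNMT3B at only 0.375 to 0.684 before 1 was added.

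EHMT1, which encodes GLP (ENSG00000181090, chromosome 9, 137618992 to 137870016, plus strand), was at 53.8, 49.5 and 54.3 TPM under the MEN1 shRNA and 55.9, 58.8 and 66.2 TPM in control cells. The MEN1 shRNA libraries were all lower, by a narrow margin to control replicate 1. The log2 fold change was -0.19 (SE 0.0801, interval -0.38 to -0.01, adjusted p 0.0771 in limma). It did not pass the threshold under any of the 19 alternative settings.

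EHMT2, which encodes G9a (ENSG00000204371, chromosome 6, 31879759 to 31897698, minus strand), was at 51.9, 48.2 and 48.8 TPM under the MEN1 shRNA and 55.6, 59.0 and 58.4 TPM in control cells. The groups did not overlap. EHMT2 fell from 57.7 ± 1.80 to 49.6 ± 2.02 TPM, 13.9% below control (a log2 fold change of -0.21, SE 0.0615, interval -0.36 to -0.07, adjusted p 0.0211 in limma). The call was lost without MEN1 shRNA replicate 2 or 3 or control replicate 2 or 3 (adjusted p 0.0641 to 0.0713), and with median-of-ratios scaling (log2 fold change -0.13, adjusted p 0.108).

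The proportion of GLP to G9a RNA differed by less than its spread between replicates. EHMT1 held 51.4 ± 1.08% of the summed TPM with the MEN1 shRNA and 51.1 ± 1.78% in the controls, and the log2 difference of the EHMT1 to EHMT2 ratio was 0.02, with a pooled SD of 0.0836 (exact permutation p 0.6). The sum fell from 118 ± 6.56 to 102 ± 4.14 TPM (a log2 fold change of -0.20, SE 0.0638, adjusted p 0.0281 in limma). The call was lost without MEN1 shRNA replicate 2 or 3 or control replicate 2 or 3 (adjusted p 0.0617 to 0.0957) and with median-of-ratios scaling (log2 fold change -0.12, adjusted p 0.140).

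The deposited coverage gives a second reading of the same genes, on a scale that differs from TPM. Its definition is not given in the sources used here, and it was read as reads per exonic base of a gene, so what sets its distance from TPM is not known. Coverage was put on the TPM scale with a single factor per library. TPM was 32.3 times this scaled coverage in EHMT1, 7.38 times in DNMT3B, 6.47 times in DNMT1, 5.55 times in KDM1A and 1.12 times in RCOR1. GENCODE v29 lists 52 transcripts of EHMT1, from 86 to 7842 bases, and 4 of RCOR1. By scaled coverage EHMT2 (29.6 ± 1.19), RCOR1 (29.4 ± 0.290) and KDM1A (27.9 ± 1.44) overlapped in the controls and EHMT1 was at 1.89 ± 0.0238, so the order of levels among the members depended on the scale. By coverage 6 members passed the threshold, 2 higher and 4 lower, with DNMT3A in and RCOR3 out. Of all 14294 genes, 7653 passed on that scale, 3082 higher and 4571 lower.

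**Figure D4:**
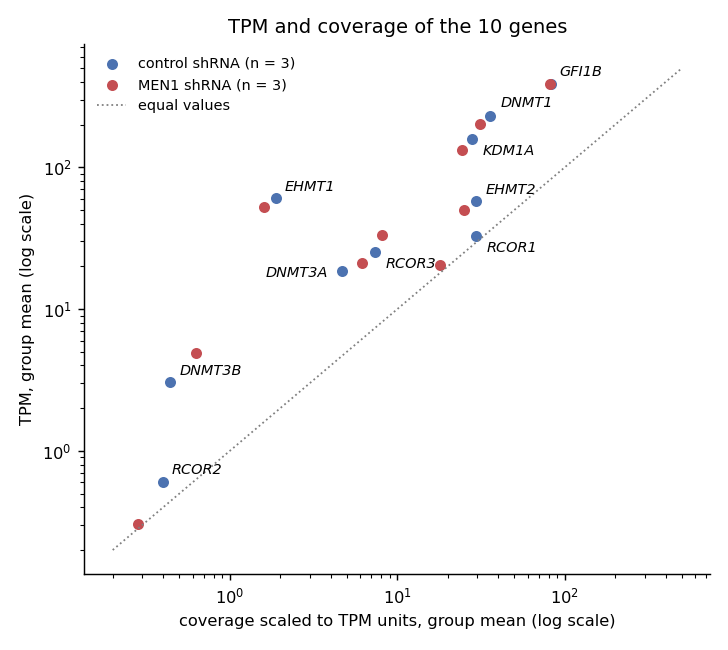
Group mean TPM against group mean coverage scaled to TPM units, both on log scales, for the 10 members, with controls in blue and the MEN1 shRNA in red. RCOR1 and RCOR2 lie near the line of equal values, and EHMT1 lies farthest above it, at 32.3 times.

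Little transcript sequence of the members is shared with other genes. Of all 75-base words in the GENCODE v29 transcripts, 0 were shared with another gene for 7 of the members. For DNMT1 it was 9 of 10416, for EHMT1 9 of 23000 and for EHMT2 3 of 7633. Rows that overlap a member on the same strand were low, such as S1PR2 over DNMT1 at 0.220 to 0.511 TPM.

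A list of 12 genes held named partners of LSD1-CoREST together with the paralogs KDM1B and GFI1. Of these 12, 11 were tested, 2 rose and 4 fell, against 22.1% higher and 31.5% lower over all genes tested. Their median log2 fold change was -0.08, against -0.07 over all genes tested. KDM1B, which encodes LSD2, the paralog of LSD1, fell from 41.3 ± 1.92 to 16.2 ± 1.99 TPM (a log2 fold change of -1.31, adjusted p 5.21e-05 in limma). HMG20B, an HMG-box partner of the complex, rose from 71.2 ± 11.3 to 105 ± 10.8 TPM (a log2 fold change of 0.56, adjusted p 0.00735). HDAC1, the deacetylase subunit, rose from 132 ± 8.41 to 185 ± 16.8 TPM (a log2 fold change of 0.48, adjusted p 0.00179), while HDAC2 had a log2 fold change of -0.08 (adjusted p 0.725). The difference between HDAC1 and HDAC2 was not tested. GFI1, the paralog of GFI1B, was under the filter at 0.0764 to 0.487 TPM. With median-of-ratios scaling the split was 3 higher and 3 lower, and 49.5% of the calls over all genes were higher, against 41.2% in TPM.

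Of 16 other genes of DNA methylation, 14 were tested, 5 rose and 2 fell, against 22.1% higher and 31.5% lower over all genes tested. Their median log2 fold change was 0.18. MBD4, a glycosylase that repairs deaminated methyl-CpG, rose from 55.1 ± 2.72 to 96.8 ± 4.96 TPM (a log2 fold change of 0.80, adjusted p 7.64e-05 in limma). HELLS, a remodeler needed for DNA methylation, rose from 29.8 ± 1.31 to 44.9 ± 2.59 TPM (a log2 fold change of 0.58, adjusted p 0.000404). UHRF2 fell from 34.3 ± 2.45 to 25.5 ± 1.12 TPM (a log2 fold change of -0.41, adjusted p 0.0029), and MBD3, a NuRD subunit, from 82.8 ± 4.73 to 66.9 ± 4.09 TPM (a log2 fold change of -0.30, adjusted p 0.00881). UHRF1, which brings DNMT1 to hemimethylated DNA, had a log2 fold change of 0.01 (adjusted p 0.922). With FPKM and with each of the 3 other scalings, 9 genes of this list rose and 2 fell.

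All 18 genes of the H3K9 list were tested, 6 rose and 5 fell, against 22.1% higher and 31.5% lower over all genes tested. Their median log2 fold change was -0.09. SETDB2, a SET-domain methyltransferase, fell from 10.1 ± 0.714 to 4.57 ± 0.750 TPM (a log2 fold change of -1.003, adjusted p 0.000421 in limma). The genes that rose included the H3K9 demethylases KDM4C, from 30.9 ± 0.957 to 42.6 ± 1.96 TPM (a log2 fold change of 0.45, adjusted p 0.000925), and KDM3A, from 30.6 ± 5.21 to 51.9 ± 3.72 TPM (a log2 fold change of 0.75, adjusted p 0.00133). The other demethylases of the list differed: KDM4A rose (0.44, adjusted p 0.00137), KDM3B fell (-0.31, adjusted p 0.00407) and KDM4B did not pass (-0.10, adjusted p 0.307). CBX1, which encodes the H3K9 methyl reader HP1-beta, rose from 33.2 ± 5.65 to 57.8 ± 2.97 TPM (a log2 fold change of 0.79, adjusted p 0.000926). The split was 6 higher and 2 lower with median-of-ratios scaling, 6 and 3 without globin and mitochondrial genes, and 7 and 3 with quantile normalization. Of the calls over all genes, 49.5%, 47.3% and 49.1% were higher under these scalings in turn, against 41.2% in TPM.

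**Figure D5:**
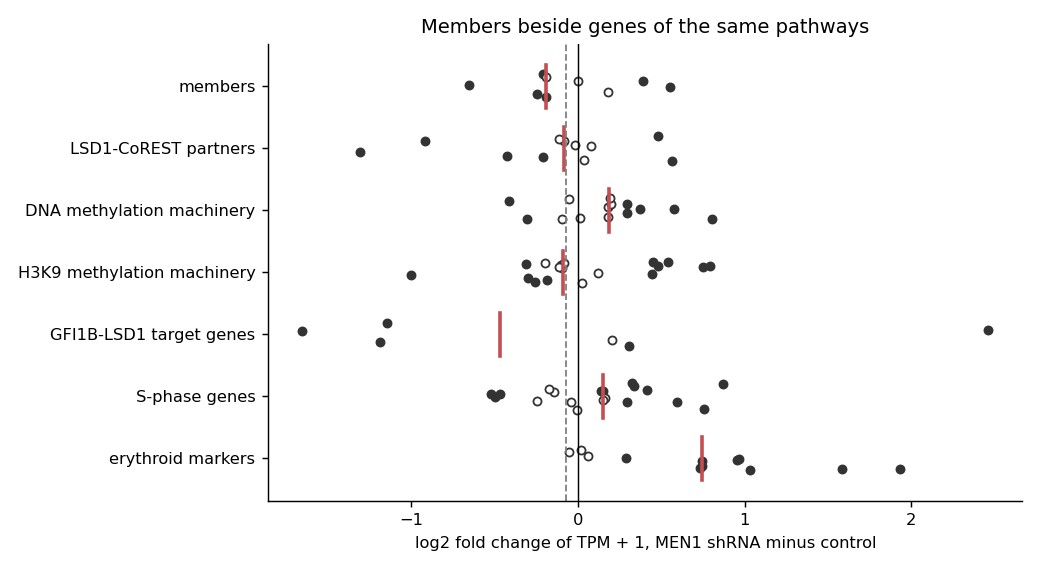
Log2 fold change of TPM + 1 for the tested genes of 7 lists, MEN1 shRNA minus control, filled where the adjusted p was under 0.05, with the list median in red and the median of all tested genes as a dashed line. The erythroid markers have the highest median, 0.74, and the GFI1B-LSD1 targets spread from -1.65 to 2.46.

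Genes known as targets of GFI1B and LSD1 repression numbered 11, of which 6 were tested, 2 rose and 3 fell. Over all genes tested, 22.1% were higher and 31.5% lower. CDKN1A, the p21 cell cycle inhibitor, rose from 2.15 ± 0.561 to 16.5 ± 4.07 TPM (a log2 fold change of 2.46, adjusted p 7.57e-05 in limma). MYC fell from 232 ± 6.52 to 74.1 ± 15.4 TPM (a log2 fold change of -1.65, adjusted p 6.39e-05). GATA2, a factor of stem and progenitor cells, fell from 157 ± 9.84 to 72.1 ± 17.8 TPM (a log2 fold change of -1.14, adjusted p 0.00101), and ID2, an inhibitor of helix-loop-helix factors, from 463 ± 130 to 201 ± 45.99 TPM (a log2 fold change of -1.19, adjusted p 0.00458). The list moved in both directions, and its median log2 fold change of -0.47 rests on these 6 genes.

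Of 17 germline genes that are known to be silenced by DNA methylation in somatic cells, 11 were at 0 in all 6 libraries and 1 was tested. That gene, SOHLH2, was at 0.650, 0.597 and 0.522 TPM under the MEN1 shRNA and 2.72, 5.31 and 3.09 TPM in control cells. It met the filter only through the control group, where it was high. Its result (log2 fold change -1.53, adjusted p 0.000758 in limma) is therefore a description and not support for a fall. SOHLH2 was named after its values were seen.

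DNMT1 is known to be made mainly in S phase, and 19 S-phase genes were read beside it. Of these 9 rose and 3 fell, against 22.1% higher and 31.5% lower over all genes tested. Their median log2 fold change was 0.15. E2F1 rose from 32.4 ± 2.27 to 59.9 ± 3.14 TPM (a log2 fold change of 0.87, adjusted p 9.48e-05 in limma), RRM2, a ribonucleotide reductase subunit, from 241 ± 18.7 to 407 ± 15.2 TPM (0.76, adjusted p 0.000109) and FEN1, the flap endonuclease, from 146 ± 5.38 to 220 ± 1.55 TPM (0.59, adjusted p 9.34e-05). CDT1, a replication licensing factor, rose from 118 ± 5.54 to 157 ± 4.45 TPM (0.41, adjusted p 0.000735). The 3 that fell were RFC4, a clamp loader subunit, from 113 ± 0.943 to 79.7 ± 8.62 TPM (-0.50, adjusted p 0.00141), POLA1, the catalytic subunit of DNA polymerase alpha, from 41.0 ± 1.61 to 29.4 ± 3.65 TPM (-0.47, adjusted p 0.00453), and CDCA7, a partner of HELLS, from 53.5 ± 9.41 to 37.1 ± 7.29 TPM (-0.52, adjusted p 0.029). The list thus moved in both directions, and its part in the fall of DNMT1 was not tested.

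Erythroid markers were high in every library. Of 12 markers 9 rose with the MEN1 shRNA, against 22.1% of all genes tested, and the other 3 (GATA1, KLF1 and EPOR) did not pass the test. The median log2 fold change of the 12 was 0.74. Their summed TPM was 96522 to 108505 with the MEN1 shRNA and 55791 to 61869 in the controls. SLC4A1, the band 3 anion exchanger, rose from 112 ± 4.17 to 429 ± 23.5 TPM (a log2 fold change of 1.93, adjusted p 8.36e-06 in limma), ALAS2, the erythroid enzyme that opens heme synthesis, from 383 ± 39.0 to 780 ± 25.3 TPM (1.03, adjusted p 6.09e-05) and EPB42, a membrane skeleton protein, from 270.0 ± 17.9 to 452 ± 10.6 TPM (0.74, adjusted p 8.33e-05). This shift and the changes of the members were both read between the same groups of libraries. The part of the shift in those changes was not tested.

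Markers of other lineages were few. Of 8 megakaryocyte markers only ITGA2B was tested, and it fell from 33.8 ± 2.44 to 18.6 ± 2.35 TPM (a log2 fold change of -0.83, adjusted p 0.000456 in limma), while PF4 and PPBP were at 0 in all libraries and the summed TPM was 16.9 to 21.6 against 31.9 to 36.9. Of 10 myeloid and mast cell markers 4 were tested, of which 2 fell and the other 2 did not pass, with a summed TPM of 458 to 534 against 607 to 782. Most of that sum was TPSAB1, a mast cell tryptase, which fell from 644 ± 90.7 to 448 ± 47.4 TPM (a log2 fold change of -0.52, adjusted p 0.0062), and no marker of the list was at 0 in all libraries. The other that fell, LYZ, was at 1.48 ± 0.198 TPM in the controls and 0.198 ± 0.0619 TPM with the MEN1 shRNA. LYZ met the filter only through the control group, so its call is not support for a fall. Of 6 lymphoid markers 1 was tested, CD3D, at 4.403 ± 1.24 TPM with the MEN1 shRNA and 0.397 ± 0.356 TPM in the controls. CD3D met the filter only through the MEN1 shRNA group, so its call is not support for a rise. MS4A1 was at 0 throughout, and the summed TPM of the list was 3.97 to 5.83 against 1.11 to 1.28. The part of these genes in the changes of the members was not tested.

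The genes whose profile over the 6 libraries was most like that of RCOR1, out of 10146 compared by the Euclidean distance of centred log2(TPM + 1), were BAK1 (distance 0.0382), DALRD3 (0.0423) and CCNJ (0.0540). BAK1 was at 9.73 ± 0.381 TPM under the MEN1 shRNA and 16.0 ± 0.0960 in the controls. Nearest to DNMT3B were ALKBH6 (distance 0.141), PPP1R9B (0.145) and FMR1 (0.146). PPP1R9B, for example, was at 84.9 ± 5.20 TPM under the MEN1 shRNA and 60.5 ± 4.29 in the controls.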

How the data were processed

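Poly(A) RNA of 3 MEN1 shRNA and 3 control libraries, labelled as biological replicates in their titles, was made into directional libraries, per the labels' protocols. Per the submitters' processing notes, FastQC, Trimmomatic, STAR 2.7.1a, Picard 2.20.4, StringTie 2.0.4 and hg38 were used. Neither their settings nor the use of strand in counting is stated. The authors deposited TPM values that sum to 1e+06 per library. The deposited FPKM values are per kilobase and per 1e+06 fragments, and the deposited coverage signal, whose definition is not given in the sources used here, was read as reads per exonic base, not scaled for depth. In control replicate 2, 2 genes with a residue below 0 were set to 0. Of the gene identifiers, 58261 are in GENCODE 29 and 99.9% of these overlap their position there, so coordinates are on GRCh38.

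No counts are used here. Depth was taken from the ratio of coverage to FPKM, constant within 0.1% in 94.9% to 95.4% of single-transcript genes, and from the modal 302 aligned bases per pair.

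Genes that reached 1 TPM in 3 or more of the 6 libraries were tested as log2(TPM + 1), which understates changes of low genes. The fit used limma 3.58.1 in R 4.3.3 (lmFit, eBayes with trend), 2-sided, adjusted by Benjamini-Hochberg over the 14294 genes and 3 family sums, with 0.05 as the threshold. Adjusted p-values come from this fit where no other is named. The step was tested on simulated data. Ratios were compared by a 2-sided exact permutation test. Tables and figures were made with Python 3.11.15 (NumPy 2.4.6, pandas 2.3.3, matplotlib 3.10.9, SciPy 1.17.1). Promoter sequences are RefSeq's.

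The members and gene lists were chosen with earlier results of these data known. Genes named are the members, MEN1, at most 4 called genes per list that average 5 TPM or above in a group, by lowest adjusted p, and the 3 genes nearest in profile to the tested members with the largest rise and fall; 2 genes under this rule are not reported here. HDAC2, UHRF1, KDM3B, KDM4A, KDM4B, RFC4, POLA1, CDCA7, GATA1, KLF1 and EPOR fall outside this rule and were named after their values were seen. So were GFI1, SOHLH2, LYZ, CD3D, TSC1, S1PR2 and markers at 0. Scaled coverage as an alternative was chosen after seeing the data. Alternatives are given in the closing section.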

Additional observations from a re-analysis of the deposited data

How the results depend on the processing

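The calls of RCOR1 and DNMT3B held in 18 of 19 alternatives each and that of RCOR3 in 17, all but the tests against a log2 change of 0.5 (limma treat) and, for RCOR3, gene-level coverage. KDM1A and EHMT2 were called in 10 and DNMT1 in 6. The cause was not tested for any of these changes, except that treat asks for more than a difference from 0 and that leaving out a library leaves fewer samples.

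With treat, 2126 genes passed, with 0 members and 2 genes of the LSD1-CoREST partner list. Also past it were 1 gene each of DNA methylation, H3K9 methylation and the myeloid and mast list, 3 GFI1B-LSD1 targets, 2 S-phase genes and 0 megakaryocyte markers. Treat, no filter, eBayes without trend and the replicate block leave the log2 fold changes themselves as in the report: -0.24 for KDM1A, -0.66 for RCOR1, 0.39 for RCOR3, -0.19 for DNMT1, 0.55 for DNMT3B, -0.21 for EHMT2, 0.26 for the DNMT3A and DNMT3B sum and -0.20 for the EHMT1 and EHMT2 sum. The replicate numbers share only a number, since deviations of same-numbered libraries correlated at 0.017, -0.027 and -0.012 (not every library correlated best with its own number). The fit with the replicate block gave 7012 genes and 3 members (RCOR1, RCOR3 and DNMT3B), with adjusted p 0.0563 for KDM1A, 0.0774 for DNMT1, 0.0616 for EHMT2, 0.0648 for the DNMT3A and DNMT3B sum and 0.0601 for the EHMT1 and EHMT2 sum. Without a filter, adjusted p was 0.0889 for KDM1A, 0.0859 for DNMT1 and 0.0560 and 0.0585 for those sums, and without trend it was 0.0661 for KDM1A, 0.0847 for DNMT1 and 0.0652 for the EHMT1 and EHMT2 sum.

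With median-of-ratios scaling the log2 fold change was -0.16 for KDM1A, -0.10 for DNMT1, 0.26 for DNMT3A, -0.13 for EHMT2, -0.12 for the EHMT1 and EHMT2 sum and 0.0856 for GFI1B. Without globin and mitochondrial genes it was -0.18 for KDM1A, -0.13 for DNMT1, -0.15 for EHMT2, -0.14 for the EHMT1 and EHMT2 sum and 0.0646 for GFI1B, and 3 members passed. With quantile normalization it was -0.18 for DNMT1, 0.32 for DNMT3A and -0.12 for EHMT2. With FPKM it was -0.16 for DNMT1 and 0.0298 for GFI1B. Genes of DNA methylation past the threshold numbered 11 under each of these 4, where 7541 to 7675 of all genes tested passed. RCOR2, not tested, moved from -0.31 to -0.95 with a pseudocount of 0.1. With gene-level coverage it was 0.13 for RCOR3, 0.34 for DNMT3A and -0.48 for the RCOR sum, and the DNMT3A to DNMT3B ratio difference turned to 0.16 with 1 added to DNMT3B coverage of 0.375 to 0.684, while the DNMT3B share by coverage (9.25% against 8.67%) kept the direction of TPM.

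When single libraries were left out, 6577 to 7545 genes and 3 to 5 members passed. The count of members was 3 without MEN1 shRNA replicate 2 and without control replicate 2. The log2 fold change ranged from -0.29 to -0.18 for KDM1A, -0.0740 to 0.0370 for GFI1B, -0.24 to -0.14 for DNMT1, -0.24 to -0.19 for EHMT2, 0.21 to 0.30 for the DNMT3A and DNMT3B sum and -0.24 to -0.16 for the EHMT1 and EHMT2 sum, and the EHMT1 to EHMT2 ratio difference from -0.0160 to 0.0775. Depth limits DNMT3B and RCOR2 most, with at most 2.50 and 1.96 reads per base.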
